A study of Petromyzon marinus with 10 samples.

Results

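NR0B2 is an orphan nuclear receptor, and on the sea lamprey genome an unnamed locus, MSTRG.16551, lies beside it on the opposite strand. These 2 of the 57134 loci assembled from larval sea lamprey (Petromyzon marinus) brainstem RNA are described here. They were chosen because both were among the loci that differed between baclofen-treated and control animals in these same libraries and because they are next to each other. Their differences between the groups are therefore a description, given without a test. The name NR0B2 for the locus MSTRG.16552 comes from the study's own list of genes, which gives no name to MSTRG.16551.

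Nuclear receptors are transcription factors that typically bind DNA and a small ligand. NR0B2, also called small heterodimer partner in mammals, lacks the DNA-binding domain and acts by binding other nuclear receptors and repressing them. In the mammalian liver it is induced by the bile acid receptor and takes part in the feedback that lowers bile acid synthesis. Its role in the lamprey brainstem is not given in the sources used here.

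All animals were larvae of 5 to 7 years from the river Ulla in Spain, and all had a complete transection of the rostral spinal cord, the controls included. In 5 libraries the animals were kept with baclofen, an agonist of the metabotropic GABAB receptor, in their water, and in the other 5 libraries the injured animals were left untreated. Each library held the RNA of 8 brainstems of different animals, so a replicate is a pool and the variation between single animals was not measured. The abstract, methods and results of the study place these libraries 9 days after the injury. The series text gives 29 days, which in the study belongs to a separate experiment with GABA. The groups thus compare injured animals with and without the drug, and no uninjured brainstem was analysed here.

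Between 12774386 and 19566056 fragments were counted per library. The names in the study's lists allowed only a short check of the tissue. The neuronal genes CPLX1, GABRA5 and CARTPT summed to 17486 to 19665 normalised counts in the baclofen libraries and 16455 to 18385 in the controls, and vimentin (VIM), found in glia, had 10281 to 11650 and 10123 to 11276. CPLX1 made up most of the neuronal sum, with a mean of 15353 under baclofen and 13694 in the controls. GABRA5 and CARTPT went the other way, with log2 fold changes of −0.13 ± 0.09 and −0.09 ± 0.07 (SE, DESeq2). Of these 4 loci CPLX1 passed the threshold, higher with baclofen by 0.17 ± 0.04 on the log2 scale (SE; adjusted p = 0.0397 in DESeq2), and its part in the values of the pair was not tested. CPLX1 was named in the study's list of loci that differed in these same libraries, so its difference is no independent evidence, and the other 3 were named in a list from another experiment of the study. A normalised count is a fragment count divided by the size factor of its library. Control replicate 1 stands apart from the other libraries in the comparison over all loci. With it 82 loci passed an adjusted p of 0.05 (DESeq2), and without it 426 did.

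Both loci lie on scaffold PIZI01000023.1 of the germline assembly Pmar_germline 1.0, with their 3′ ends facing each other. NR0B2 runs on the minus strand from 13383474 to 13400234. Its 5 exon records were merged where they overlapped or adjoined, which left 2 exons. Which transcripts these records belong to was not examined. The upstream exon, from 13397256 to 13400234, is 2979 bp long, the downstream exon, from 13383474 to 13385025, is 1552 bp long, and an intron of 12230 bp separates them. MSTRG.16551 runs on the plus strand from 13381036 to 13382861 and has 6 short exons of 46 to 256 bp, 753 bp in all. Its exon 2 ends at 13381410 and its exon 3 starts at 13381433. Whether so short a gap is a spliced intron was not examined. Between the end of MSTRG.16551 and the end of NR0B2 lie 612 bp. The outermost starts of both loci are 19198 bp apart. Whether MSTRG.16551 codes for a protein is not given in the sources used here.

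**Figure D1:**
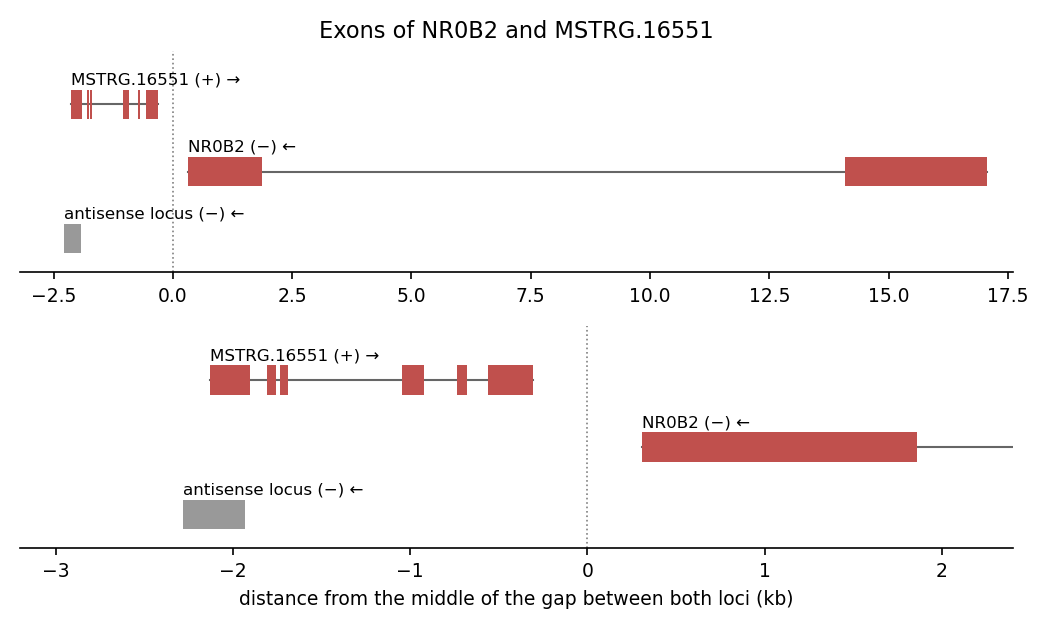
Merged exons (boxes) and the stretches between them (lines) of NR0B2 and MSTRG.16551 along the scaffold. Positions are distances in kb from the middle of the gap between both loci, over the whole pair (upper panel) and enlarged around the gap (lower panel). Arrows give the direction of transcription. The 3′ ends face each other across 612 bp, and the grey box is a minus-strand locus that overlaps the first exon of MSTRG.16551.

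No exon of NR0B2 or MSTRG.16551 shared a base with an exon of another locus on its own strand. Each does lie within the span of longer loci on its own strand. Whether fragments from the introns of those loci were counted here was not tested. A single-exon minus-strand locus shares 199 bases with the first exon of MSTRG.16551. It collected 2 fragments over all 10 libraries, while MSTRG.16551 collected 1475. Fragments were counted by strand, and at this place almost none were assigned to the strand opposite MSTRG.16551.

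In the RefSeq gene table, which describes another assembly (UKy_Petmar_22M1), a single gene carries the symbol NR0B2, and it is listed as protein-coding. Its neighbours in that table are the protein-coding gene LOC142931215 and the long noncoding RNA LOC142931216. The table shares no identifier with the assembled loci, so neither was matched to MSTRG.16551.

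NR0B2 was present in every library. The baclofen libraries had 376, 501, 425, 566 and 583 fragments in replicates 1 to 5, and the controls had 259, 228, 174, 199 and 319. After scaling, the baclofen libraries held 423, 536, 419, 465 and 480 normalised counts, and the controls held 220, 235, 225, 206 and 307.8. The groups did not overlap, and the lowest baclofen library, replicate 3, lay 1.36-fold above the highest control, replicate 5. Replicates 1 to 4 of the controls kept within 206 to 235, and replicate 5 stood above them.

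NR0B2 averaged 464 ± 47.8 normalised counts in the baclofen group and 239 ± 40.0 in the control group (n = 5 per group, SD). On the log2 scale the fitted difference was 0.96 ± 0.11 (SE, DESeq2), or 1.94-fold. The locus passed the threshold by which it was chosen, as 0.269% of the 23794 tested loci did in the higher direction, 0.0756% in the lower and 0.345% in either. Groups that do not overlap, with baclofen higher, were found at 0.765% of the tested loci. Of the 82 loci past the threshold, 11 had a log2 fold change at least as large as that of NR0B2, itself included.

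MSTRG.16551 was also present in every library, at lower counts. In the same order, 156, 231, 156, 237 and 219 fragments were counted in the baclofen libraries, while 138, 78, 76, 78 and 106 were counted in the controls. After scaling these were 175, 247, 154, 195 and 180 normalised counts for baclofen, while the controls held 117, 80.4, 98.4, 80.8 and 102. Again the groups did not overlap, with the lowest baclofen library, replicate 3, 1.31-fold above the highest control, replicate 1. The highest library of all was baclofen replicate 2, as it was for NR0B2. In the study's alignment statistics this library had the lowest share of uniquely mapped reads of both groups. Its share of multimapping reads was the highest of both groups. The other baclofen libraries all had a larger share of uniquely mapped reads than any control. Their shares of multimapping reads were lower than in most controls. Mapping thus also differed between the groups, and its part in the values at either locus was not tested.

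MSTRG.16551 averaged 190 ± 34.9 normalised counts in the baclofen group and 95.8 ± 15.5 in the control group (n = 5 per group, SD). The fitted difference on the log2 scale was 0.98 ± 0.15 (SE, DESeq2), or 1.98-fold. It too passed the threshold by which it was chosen. In bulk RNA, a change in the number of cells that express a transcript and a change in its level per cell cannot be told apart, at either locus.

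**Figure D2:**
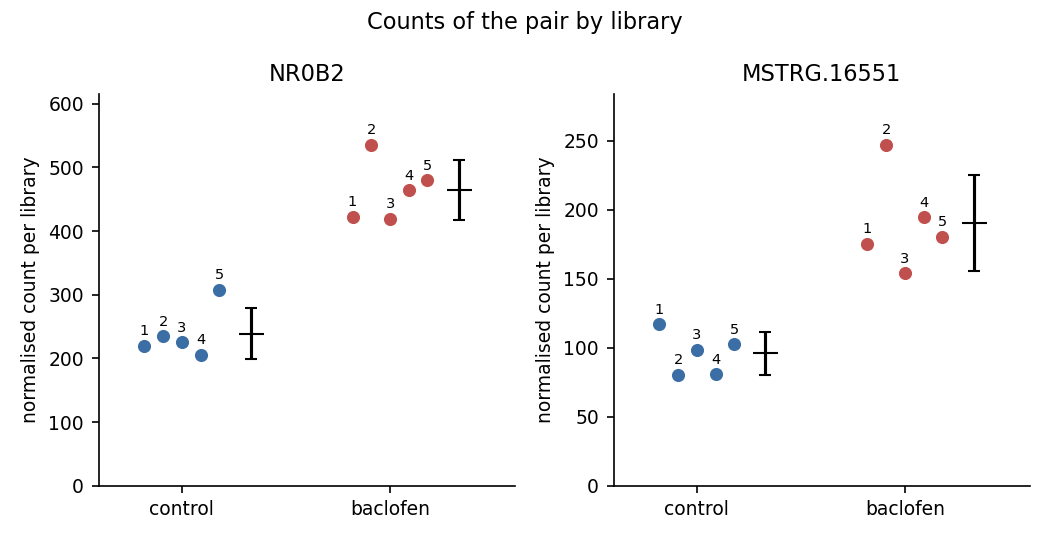
Normalised counts of NR0B2 (left) and MSTRG.16551 (right) in each library, with the replicate number beside each point and the group mean ± SD (n = 5) as a black bar. At NR0B2 the baclofen libraries lie between 419 and 536 and the controls between 206 and 307.8, and at MSTRG.16551 between 154 and 247 and between 80.4 and 117.

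Per length of exon the order of both loci was the reverse of that of the counts. Per kb of merged exon, NR0B2 reached 103 ± 10.5 normalised counts in the baclofen group and 52.7 ± 8.83 in the control group, and MSTRG.16551 reached 253 ± 46.4 and 127 ± 20.6 (n = 5 per group, SD). On this scale NR0B2 lay at percentile 58.1 of the tested loci and MSTRG.16551 at percentile 82.5. By the mean normalised count they lay at percentiles 65.5 and 50.1.

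The spread between replicates exceeded the counting error at both loci. For NR0B2 the coefficient of variation was 10.3% with baclofen and 16.8% in controls, where counting alone gives 4.52% and 6.51%. For MSTRG.16551 it was 18.4% and 16.2%, against 7.07% and 10.2% from counting. Within the groups, the SD of the log2 value was 0.19 for NR0B2 and 0.24 for MSTRG.16551. Among the loci with a mean count within 1.25-fold of theirs, the median SD was 0.13 and 0.19, and the members lay at percentiles 81.6 and 75.6. Over these libraries both loci were thus more variable between pools than most loci of similar count. At NR0B2 the largest deviation from the group mean was 0.38, in control replicate 5, and the SD without that library was not computed.

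The ratio of both loci was similar in the groups. In the order of the replicates, the log2 ratio of NR0B2 to MSTRG.16551 was 1.27, 1.12, 1.45, 1.26 and 1.41 under baclofen. In the controls it was 0.91, 1.55, 1.20, 1.35 and 1.59. The baclofen values fell inside the range of the controls, which was set by replicate 1 at the low end and replicate 5 at the high end. The mean ratios were 1.30 ± 0.13 and 1.32 ± 0.28 (n = 5 per group, SD), and baclofen minus control was −0.02. The ratio does not depend on the scaling of the libraries, and since both loci were chosen as higher with baclofen it was not tested.

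Whether the pair also varied together within the groups is a question that the choice of the loci did not use. For this the group mean was taken from each log2 value, and the remaining deviations of the 10 libraries were compared. In 7 libraries both loci lay on the same side of the group mean, 3 high and 4 low, and in 3 on opposite sides. Both were high in baclofen replicate 2, by 0.21 at NR0B2 and 0.39 at MSTRG.16551, and in control replicate 5, by 0.38 and 0.11. They were also high, by 0.05 or less, in baclofen replicate 4. Both were low in baclofen replicates 1 and 3 and control replicates 2 and 4. The opposite cases were baclofen replicate 5 and control replicates 1 and 3, the widest being control replicate 1 with −0.10 at NR0B2 and 0.30 at MSTRG.16551.

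Over the 10 libraries Pearson's r of the deviations was 0.51 and Spearman's rho 0.60. Neither passed the threshold in a two-sided exact permutation test within the groups (p = 0.151 and p = 0.0973, n = 10), nor after adjustment over the 5 relations examined (0.627 and 0.243). Without baclofen replicate 2 and control replicate 5, the libraries farthest from the median at NR0B2, r was 0.28 (exact permutation p = 0.481). Without control replicate 1, r was 0.73 (exact permutation p = 0.0108). A correlation between both loci within the groups was not resolved with these libraries and depended on single ones.

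**Figure D3:**
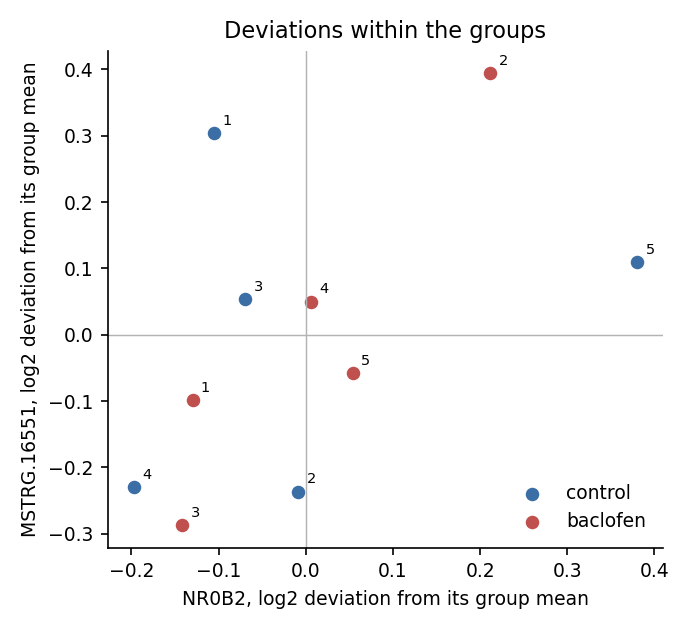
Deviation of each library from its group mean on the log2 scale, NR0B2 on the horizontal and MSTRG.16551 on the vertical axis, with the replicate number beside each point. Baclofen replicate 2 is high at both loci, and control replicate 1 is high at MSTRG.16551 only.

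The correlation of the pair was set beside that of other loci. Over 16373 loci averaging 50 or more normalised counts, 745 had a higher r with NR0B2 than MSTRG.16551 did, and 1379 had a higher r with MSTRG.16551 than NR0B2 did. Over those loci the median r was −0.06 with NR0B2 and −0.19 with MSTRG.16551. The series holds 292 pairs of neighbouring tested loci with the same layout, on opposite strands, 3′ ends facing and under 1000 bp apart. Their median r was 0.16, with quartiles of −0.17 and 0.40, and 50 of them had a higher r than NR0B2 and MSTRG.16551. In 2 of the 292 pairs at least 1 locus passed the threshold for baclofen, and in 1 of them, this pair, both did. That this pair is counted follows from how it was chosen.

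The loci most like each member by their deviations differed between the members. For NR0B2 they were the unnamed loci MSTRG.39085 (r = 0.92) and MSTRG.15415 (r = 0.89). For MSTRG.16551 they were MSTRG.34147 (r = 0.985) and MSTRG.55020 (r = 0.97), each over 10 libraries. None of the 4 passed the threshold for baclofen, with log2 fold changes between −0.10 and 0.05 (DESeq2 adjusted p of 0.998 to 0.999). The points share library and scaling, and the highest of so many values of r is large in any such search.

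The surroundings of the pair were compared next, since they were chosen by position. Within 100 kb of the pair the assembly holds 6 other loci, of which 3 had enough counts to be tested, and 0 of the 6 passed the threshold in DESeq2. At an unadjusted p under 0.05 there were also 0, and with edgeR 0 passed the adjusted threshold. Since 0.345% of all tested loci passed, a count of 0 among 3 tested loci is near the background and is no result about the surroundings.

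The nearest expressed locus on the side of the NR0B2 start is a plus-strand locus with 13072 bp of exons (MSTRG.16553). Its nearest exon lies 13.1 kb beyond that start. It averaged 581 ± 23.9 normalised counts under baclofen and 539 ± 47.4 in the control group (n = 5 per group, SD), and its groups overlapped. The log2 difference was 0.10 ± 0.08 (SE; adjusted p = 0.989 in DESeq2), with a 95% interval of −0.04 to 0.25.

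A second plus-strand locus (MSTRG.16549) spans 285 kb and has the pair inside an intron, with its nearest exon 53.1 kb away. It averaged 88.3 ± 12.7 normalised counts under baclofen and 79.4 ± 32.4 in the control group. The log2 difference was 0.14 ± 0.22, with a 95% interval of −0.30 to 0.58 (SE; adjusted p = 0.998 in DESeq2). Without control replicate 1 it was 0.43, and DESeq2 then gave the locus no adjusted p. Another plus-strand locus (MSTRG.16548) lies 86.8 kb from the start of MSTRG.16551 and averaged 158 ± 39.5 and 183 ± 70.4 normalised counts. Here the log2 difference was −0.22 ± 0.22, with a 95% interval of −0.66 to 0.22 (SE; adjusted p = 0.998 in DESeq2), and without control replicate 1 it was 0.02.

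Control replicate 1 was the highest control at MSTRG.16549, with 135 normalised counts against 55.6 to 81.1 in the others, and at MSTRG.16548, with 294 against 116 to 208. It was also the highest control at MSTRG.16551, with 117 against 80.4 to 102, but not at NR0B2. The part of this library in the values of MSTRG.16551 is given by leaving it out, which changed the log2 fold change from 0.98 to 1.07.

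**Figure D4:**
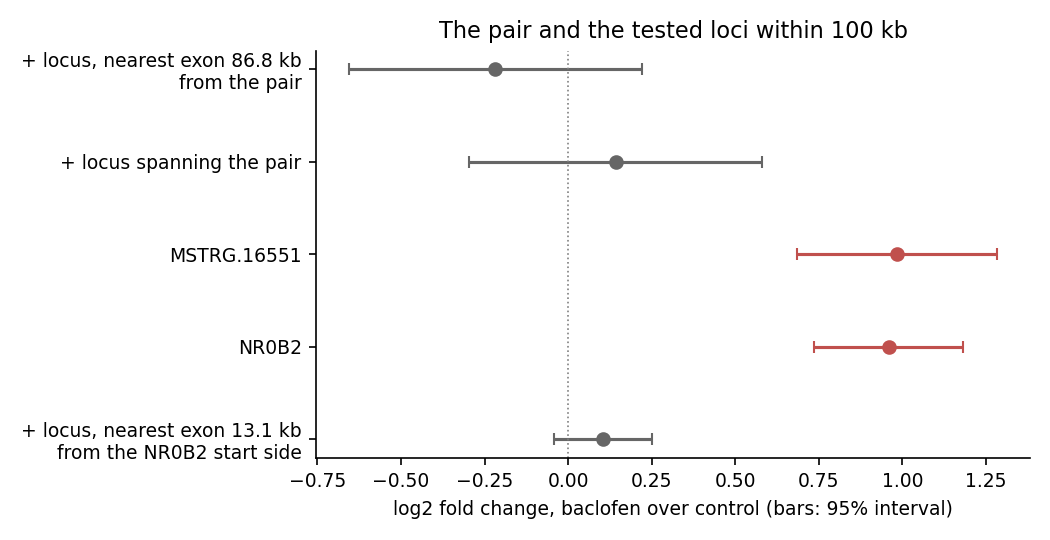
Log2 fold change of baclofen over control with its 95% interval for the pair (red) and for the 3 tested loci within 100 kb (grey), in the order of their position. The grey intervals all include 0. The red points were chosen for their difference and are shown as a description.

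The other 3 loci within 100 kb by their spans had too few counts. The minus-strand locus opposite the first exon of MSTRG.16551 had 0 or 1 fragment per library. A minus-strand locus that spans 493 kb had 9 to 19 fragments per library, its nearest exon lying 33.6 kb from the pair. A plus-strand locus that spans 619 kb had 1 to 7.

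NR1D1 is the only other nuclear receptor that the study's lists name. It encodes a heme-binding repressor of the circadian clock in mammals. Its normalised count ranged from 1521 to 2091 under baclofen and from 330 to 750 in the control group. The log2 difference was 1.75 ± 0.23 (SE, DESeq2), and NR1D1 is likewise on the list chosen from these libraries. Within the groups, the deviations of NR0B2 and NR1D1 had an r of 0.50 and a rho of 0.60 (exact permutation p = 0.251 and p = 0.0850, n = 10, adjusted over 5 relations 0.627 and 0.243). Without baclofen replicate 2 and control replicate 5, r was 0.76 (exact permutation p = 0.0122). For MSTRG.16551 and NR1D1, r was 0.12 and rho 0.15 (exact permutation p = 0.746 and p = 0.686, n = 10). Neither relation passed the threshold over all libraries, and that of NR0B2 with NR1D1 depended on those left out. The relations of NR0B2 and MSTRG.16551 to the total count of the library had an r of 0.09 and −0.04 and a rho of 0.36 and 0.07 (exact permutation p = 0.809, 0.917, 0.335 and 0.890, n = 10). The adjusted values of these last 3 relations were 0.917 for r and 0.558 or more for rho.

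Besides NR0B2, 8 loci were picked from the lists of the study, NR1D1 among them. Their counterparts in mammals are nuclear receptors or targets of nuclear receptors or of the clock. The pick need not hold all such loci on the lists. In the fit over all loci 6 were higher and 2 lower with baclofen. Of all 82 loci past the threshold 64 were higher and 18 lower, so the split of the 8 is near that background. Their median log2 fold change was 0.47, against −0.01 over all tested loci, which were not chosen for a difference. The study took the 8 loci from the same libraries for having passed the threshold, so neither the count nor the median is independent evidence.

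The higher ones include SGK1, a kinase induced by corticosteroids in mammals, which averaged 1404 ± 100.2 normalised counts under baclofen and 1004 ± 106 in the control group (n = 5 per group, SD). A locus annotated as TSC22 domain family protein 3, whose mammalian counterpart is induced by glucocorticoids, had 1047 ± 89.3 and 467 ± 214. The phosphatase DUSP1, the clock output factor HLF and the cysteine-degrading enzyme CDO1 had log2 fold changes of 0.45, 0.39 and 0.57. The 2 lower ones are amino acid degrading enzymes that glucocorticoids induce in the mammalian liver. Tyrosine aminotransferase (TAT) had 2982 ± 408 and 4674 ± 824 normalised counts, and tryptophan 2,3-dioxygenase had 595 ± 77.6 and 844 ± 117.

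Markers of leukocytes, another cell type that a dissected brainstem can hold, moved in both directions. Of 3 such loci in the study's lists, PTPRC (CD45) was higher with baclofen (log2 fold change 0.56 ± 0.12, SE), while the selectin CD62L (−1.24 ± 0.27) and the lymphocyte receptor VLRA (−0.58 ± 0.13) were lower. These 3 were also chosen on these libraries. Their summed normalised count was 721 to 945 in the baclofen libraries and 881 to 1119 in the controls, and none was at 0 in a library. Their part in the values of NR0B2 and MSTRG.16551 was not tested.

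The size of both differences moved little with single libraries. When each library was left out in turn, the log2 fold change of NR0B2 lay between 0.90 and 1.07 and that of MSTRG.16551 between 0.88 and 1.07. The lowest values came without baclofen replicate 2 at both loci. The highest came without control replicate 5 at NR0B2 and without control replicate 1 at MSTRG.16551. As the loci were chosen on these libraries, the direction was fixed by the choice. The size and its small movement also come from that choice and are no independent evidence.

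**Figure D5:**
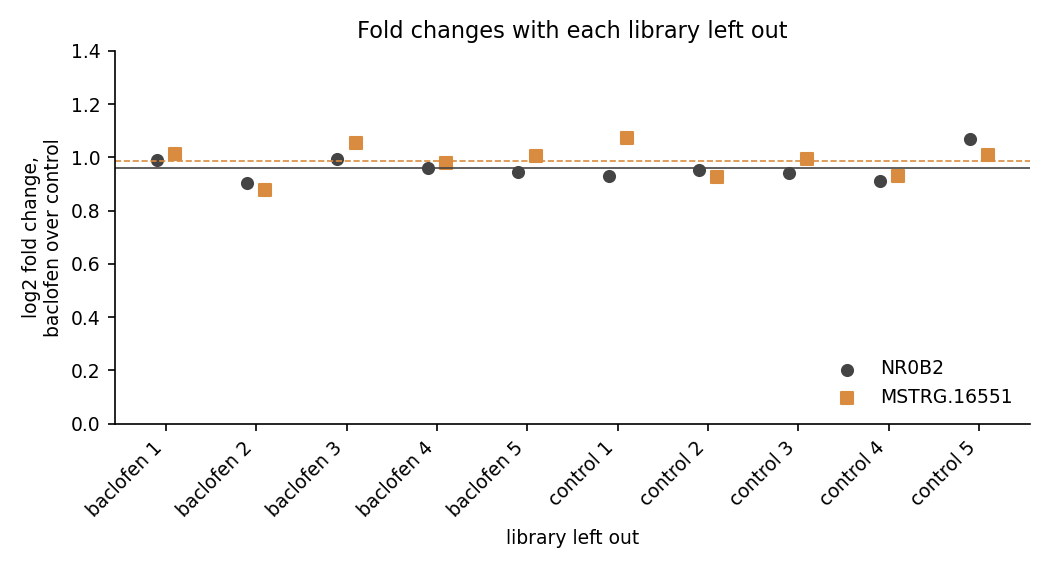
Log2 fold change of NR0B2 (circles) and MSTRG.16551 (squares) with each of the 10 libraries left out in turn, and with all libraries (solid and dashed line, 0.96 and 0.98). The values lie between 0.88 and 1.07.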

How the data were processed

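RNA of 5 baclofen and 5 control libraries was prepared with a stranded protocol from polyadenylated RNA. The authors trimmed reads with Fastp, aligned them with STAR to Pmar_germline 1.0, assembled loci with StringTie and counted fragments by strand with featureCounts. The versions are not given in the sources used here. The deposited values are these raw counts per locus, not normalised. Lists of the study's own comparisons gave the gene names and the named loci described here. All fold changes printed are from the fits described next.

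Counts of all 57134 loci were fitted by DESeq2 (1.42.0, under R 4.3.3) in its default settings on treatment alone, and p-values were adjusted over the 23794 tested loci (Benjamini-Hochberg, threshold 0.05). Both members had a mean count above the independent filter of 14.3. In 2 loci a line broken in the file was rejoined. Deviations used log2(normalised count + 0.5), and exact permutation tests over all 10 libraries took the 14400 arrangements within the groups. Where libraries were left out, only the fewer arrangements of the libraries kept were taken. Each replicate is a pool of different animals, so p-values measure the spread between pools.

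The members and lists were chosen with earlier results of these data known. Named were the members, NR1D1, the 2 loci most alike to each member, the neighbouring loci, and the listed loci with names. The alternatives were edgeR version 4.0.16 with and without its filter, TMM or total-count scaling, a minimum of 10 counts in 5 or more libraries, independent filtering off, Cook's cutoff off, a replicate block, counts of overlapping loci added, windows of 50 and 250 kb, a pseudocount of 5, and each library left out. The scripts were tested on simulated data.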

Additional observations from a re-analysis of the deposited data

Results flagged for a closer look

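Control replicate 5 held 307.8 normalised counts of NR0B2, far from the other controls at 206 to 235. The gap to the next control took 0.716 of the range of the group, past the limit of 0.71 for 5 values, and 0.724 and 0.747 with TMM factors and total counts as the scaling. Of 14 groups of 5 values examined this was the only 1 past the limit, and chance alone puts about 1 group in 20 past it. At MSTRG.16551 the same library, with 102, lay inside the range of the controls. Without it the log2 fold change of NR0B2 was 1.07.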

How the results depend on the processing

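The log2 fold change of NR0B2 stayed between 0.90 and 1.07 in 19 alternatives. That of MSTRG.16551 stayed between 0.88 and 1.07 in 18, and was 0.67 when the counts of the loci spanning it on its own strand were added. With such counts added at both loci, the difference of the log2 ratio between the groups was 0.23 in place of −0.02, and it was −0.12 to 0.05 with each library left out. The within-group r was 0.33 to 0.73 with each library left out, the lowest without baclofen replicate 2 and the highest without control replicate 1. It was 0.54 with TMM factors and 0.63 with total counts (exact permutation p = 0.127 and p = 0.0644). The count of loci near the pair past the threshold was 0 in 20 alternatives, against a background of 0.345% and with few loci tested, and without control replicate 1 MSTRG.16549 had no adjusted p. The fits without 1 library gave 0.04 to 0.43 at MSTRG.16549, the highest without control replicate 1. At MSTRG.16548 such fits gave −0.34 to 0.02, the only positive value being the 0.022 without control replicate 1. Over all loci 82 passed the threshold with DESeq2, 25 and 30 with edgeR with and without its filter, 45 with the replicate block, and 49 to 426 with each library left out, the lowest without baclofen replicate 5 and the highest without control replicate 1. The causes were not tested.

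No pairing of the libraries by replicate number was found, and the labels give none. With 5 libraries per group, this check cannot exclude one. Same-numbered libraries had correlations of their deviations between −0.07 and −0.004, and 0 of 5 baclofen libraries correlated best with the control of their own number. With the replicate block the log2 fold changes of NR0B2 and MSTRG.16551 were 0.97 and 0.98, the difference of the log2 ratio was −0.02, and r was 0.72 (exact permutation p = 0.200).

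Single libraries held 76 to 583 fragments of NR0B2 or MSTRG.16551. At the mean fragment counts of the groups, counting alone gives a coefficient of variation of 4.52% to 10.2%. The smallest resolvable difference in the ratio was not computed.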
